A study of Homo sapiens with 2 samples.

Results

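The genes described here are the 30 zinc finger genes of chromosome 19 whose start lies between 40 and 52 Mb (hg19), a stretch assigned to bands 19q13.2 to 19q13.33. They were taken by symbol, as ZNF or ZFP followed by a number, and by position, from 35812 gene symbols in all, and each has 1 interval in the table. The label rests on names and coordinates, since the files give no bands. The study mapped H3K9me3 by chromatin immunoprecipitation and sequencing (antibody ab8898) in KBM7, a human leukemia cell line (chronic myeloid) with a near-haploid karyotype, and used an IgG immunoprecipitation of the same line. It holds 1 library of each, and only the H3K9me3 one was analysed here. The cells carried no treatment in the labels, and every value below describes 1 H3K9me3 library of 1 cell line, without replicate, so no test was made between groups of genes.

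Trimethylation of lysine 9 on histone H3 marks silenced repeats and some gene families. Zinc finger proteins with a KRAB domain bind DNA through arrays of fingers and recruit TRIM28, which brings in the methyltransferase SETDB1, the enzyme that writes the mark. The genes for these proteins arose by tandem duplication, lie in clusters, most of all on chromosome 19, and are themselves known to carry the mark, above all over the 3′ exon that encodes the fingers. Other zinc finger proteins, without a KRAB domain, have varied functions.

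The gene score is the authors' number of H3K9me3 reads per kb of the gene interval, and cover is the share of the interval that lies in the authors' peaks. A chain is a row of zinc finger genes with gaps of at most 100 kb between neighbours. Members in a chain of at least 3 genes are called clustered, and the others solitary. By this rule 24 members in 3 chains were clustered and 6 were solitary. The reads over all gene intervals sum to 78512210, with some reads counted more than once where intervals overlap, and the median score of all symbols was 43.5 reads per kb. Members held 53 to 7903 reads each. Intervals on scores are exact Poisson at 95% and cover counting error only. Those on shares of genes are exact Clopper-Pearson at 95%. They treat genes as independent draws, which neighbours in a chain are not, so they measure no spread between libraries.

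Promoters of the longest chain shared a short sequence that stood outside the rule. RefSeq (GRCh38.p14) gave a promoter of 300 bases, from 250 before to 50 after the start, for 24 of the 30 members. The 8 letters TTCTGGGA, or TCCCAGAA on the other strand, were noticed in these promoters and then counted, so the count is a description. They occurred in 12 of the 24, among them 11 of the 14 matched members of the longest chain, against 2.78% of 27305 genes with a promoter in the table. Among zinc finger genes with a promoter in the table, the share was 15 of 195 elsewhere on chromosome 19 (7.69%) and 21 of 226 on other chromosomes (9.29%). The first promoter listed was used for each gene. Of the members, ZNF229, ZNF574 and ZNF576 have 2 listed. ZNF225 held 4 copies, and ZNF224, ZNF227, ZNF230 and ZNF235 held 2 each. ZNF546 was the 1 member outside the longest chain with a copy, and all 7 members known to lack a KRAB domain had none in this window. Tandem copies share ancestry, so these promoters are not separate observations. The promoters printed below are those of the highest-scoring member (ZNF180), of the member with the highest cover (ZNF222), of a pair of neighbours in the longest chain that share a stretch without peaks (ZNF224 and ZNF225) and of the lowest-scoring member (ZNF296). Capitals mark the 8 letters on either strand. On GRCh38.p14 they lie, ZNF180 at chr19:44500473-44500772 on the minus strand, ZNF222 at chr19:44025129-44025428 on the plus strand, ZNF224 at chr19:44094111-44094410 on the plus strand, ZNF225 at chr19:44113149-44113448 on the plus strand, and ZNF296 at chr19:45076429-45076728 on the minus strand. The start that RefSeq uses can differ from the one in the hg19 intervals.
ZNF180: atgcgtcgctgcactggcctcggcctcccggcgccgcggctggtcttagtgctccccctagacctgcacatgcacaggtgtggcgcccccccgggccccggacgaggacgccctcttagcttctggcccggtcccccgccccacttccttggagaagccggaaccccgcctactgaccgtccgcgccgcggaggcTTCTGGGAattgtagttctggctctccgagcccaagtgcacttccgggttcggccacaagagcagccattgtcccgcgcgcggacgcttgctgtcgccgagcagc
ZNF222: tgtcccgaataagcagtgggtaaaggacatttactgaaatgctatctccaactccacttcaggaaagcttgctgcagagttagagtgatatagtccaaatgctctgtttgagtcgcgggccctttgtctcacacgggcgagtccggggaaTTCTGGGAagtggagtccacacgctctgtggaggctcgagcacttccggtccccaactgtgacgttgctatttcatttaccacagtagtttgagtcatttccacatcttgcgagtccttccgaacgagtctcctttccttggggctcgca
ZNF224: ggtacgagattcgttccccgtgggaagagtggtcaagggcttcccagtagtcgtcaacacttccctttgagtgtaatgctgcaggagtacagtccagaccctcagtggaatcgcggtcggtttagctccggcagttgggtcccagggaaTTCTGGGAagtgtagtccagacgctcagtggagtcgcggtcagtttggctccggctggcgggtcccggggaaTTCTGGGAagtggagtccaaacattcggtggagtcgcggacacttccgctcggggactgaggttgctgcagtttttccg
ZNF225: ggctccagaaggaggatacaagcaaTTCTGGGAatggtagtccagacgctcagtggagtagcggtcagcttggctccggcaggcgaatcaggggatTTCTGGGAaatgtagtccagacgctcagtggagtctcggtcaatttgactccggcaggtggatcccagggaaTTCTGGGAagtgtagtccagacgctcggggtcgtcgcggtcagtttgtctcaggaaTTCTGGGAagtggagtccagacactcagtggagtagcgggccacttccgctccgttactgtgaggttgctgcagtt
ZNF296: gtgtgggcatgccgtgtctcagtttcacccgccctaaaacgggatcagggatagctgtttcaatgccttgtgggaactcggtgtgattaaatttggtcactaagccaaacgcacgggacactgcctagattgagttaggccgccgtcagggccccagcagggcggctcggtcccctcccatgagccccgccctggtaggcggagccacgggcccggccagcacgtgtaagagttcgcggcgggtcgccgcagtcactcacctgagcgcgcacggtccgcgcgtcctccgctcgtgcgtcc

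Most zinc finger genes of the window overlapped an H3K9me3 peak, and most of these lay in 1 chain of 18 genes. A peak was present in 24 of 30 members (80.0%, 61.4 to 92.3), against 36.8% of all symbols, 31.8% of the genes of chromosome 19 that are not zinc finger genes and 24.4% of the 409 other genes of the window. Their median score was 130.3 reads per kb, ranging from 10.4 to 252, against 30.3 for the other genes of the window, a ratio of 4.30. Peaks covered on average 45.2% of a member and 7.05% of another gene, a difference of 38.1 percentage points. At least 50% of the gene lay in peaks in 13 members, against 5.55% of all symbols and 4.65% of the other genes of the window. The median score of all symbols was exceeded by 25 members, against 36.2% of the other genes of the window, and the 90th percentile of all symbols, 147 reads per kb, by 10 members, against 2.93%. Without the chain of 18, a peak was present in 6 of 12 members, the median score was 53.0 (1.75 times that of the other genes) and mean cover was 18.3%.

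Clustered genes had higher scores and more cover than solitary ones, but both classes held genes with and without a peak. The 24 clustered members had a median score of 135 (15.9 to 252) and the 6 solitary ones 37.4 (10.4 to 151), a ratio of 3.62. Mean cover was 53.3% in clustered and 12.7% in solitary members, a difference of 40.7 points. A peak was present in 21 of 24 clustered members and in 3 of 6 solitary ones. All 13 members with at least 50% cover were clustered, 12 of them in the chain of 18 genes. The solitary gene ZNF473, at 49.6%, fell just short of this limit. The ratio of median scores rests in part on ZNF473: without this solitary gene it was 7.98. Without the longest chain, which holds 18 of the 24 clustered genes, it was 2.35, with cover of 24.0% against 12.7%.

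**Figure D1:**
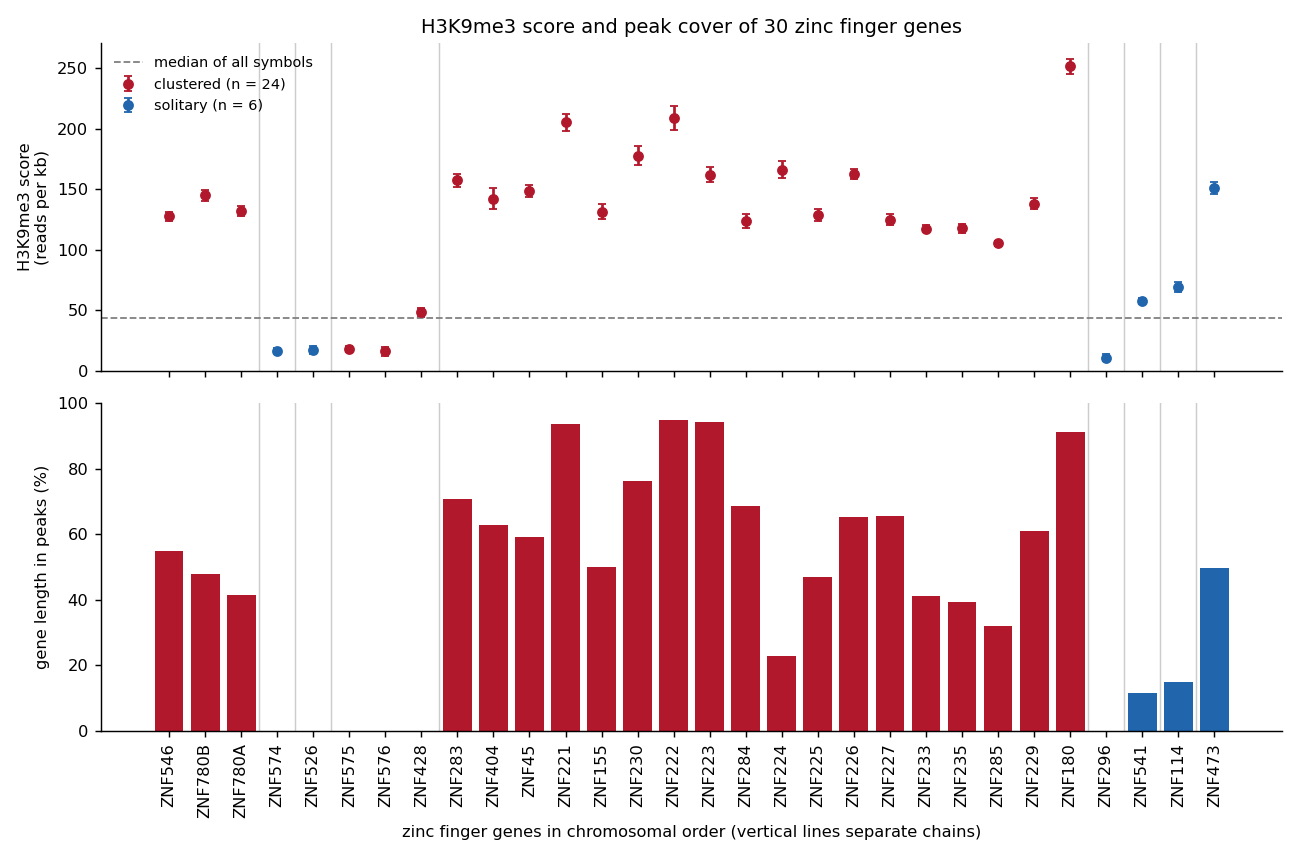
H3K9me3 score in reads per kb (top, points with exact Poisson intervals of 95%) and percent of the gene in peaks (bottom, bars) for the 30 members in chromosomal order, with clustered genes in red and solitary genes in blue. Every gene from ZNF283 to ZNF180 lies above the median of all symbols (dashed), whereas the clustered genes ZNF575 and ZNF576 lie with the solitary genes ZNF574, ZNF526 and ZNF296.

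The longest chain held 18 genes on 673 kb, from ZNF283 to ZNF180, at 44331444 to 45004574 of chromosome 19 (hg19), 12 on the plus strand and 6 on the minus strand. All 18 had a peak and a score above the median of all symbols. Their median score was 145, at a mean cover of 63.1%. The chain overlapped 128 peaks with a median width of 1950 bp, against 1200 bp for the 4965 peaks of chromosome 19. The widest, 16500 bp at 44466451 to 44482950, overlapped ZNF221. Of the peaks of the chain, 6 were at least 10 kb wide, as were 119 on the whole chromosome.

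At the left end of the chain, ZNF283 scored 157 (152 to 163) with 70.7% in peaks. ZNF404 scored 142 (134 to 151) with 62.8%, and ZNF45 scored 148 (143 to 153) with 59.1%. The counting interval of the score of ZNF404 overlapped that of ZNF45 but not that of ZNF283. ZNF221 followed at 205 (198 to 212) with 93.8% in peaks, and ZNF155 at 132 (126 to 138) with 49.9%. The counting intervals of the scores of these 2 neighbours did not overlap. ZNF230 scored 178 (170 to 186) with 76.4% in peaks. ZNF222 scored 209 (199 to 219) and had the highest cover of all members, 94.8%, in a single peak of 12900 bp. ZNF223 had almost the same cover, 94.4%, at a lower score of 162 (156 to 168). ZNF284, 4.15 kb further on, scored 124 (118 to 129) with 68.7% in peaks.

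In the middle of the chain score and cover parted at ZNF224. ZNF224, which encodes a KRAB repressor of the aldolase A gene, scored 166 (160 to 173), above the median of the chain, yet only 22.9% of it lay in peaks, the lowest cover among the 18. ZNF225 scored 129 (124 to 134) with 47.0% in peaks. A stretch of 22800 bp without a peak, at 44603851 to 44626650, ran from inside ZNF224 over the start of ZNF225. ZNF226, the next gene, scored 163 (159 to 167) with 65.1% in peaks, and ZNF227 scored 125 (121 to 130) with 65.6%. ZNF233 and ZNF235 scored 117 (115 to 120) and 118 (114 to 122), with 41.2% and 39.3% in peaks. They are not separate measurements, since the interval of ZNF235 lies wholly within that of ZNF233 and the reads of its 30.7 kb are counted in both.

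At the right end, ZNF285 was the lowest of the chain in score, at 105 (102.97 to 108), and had the longest interval, 75.1 kb. Of this interval 31.9% lay in peaks. Within it lay 2 long stretches without a peak, of 28950 bp at 44871901 to 44900850 and of 16200 bp at 44853751 to 44869950. ZNF229 scored 138 (133 to 143) with 60.9% in peaks. ZNF180, the last gene of the chain, had the highest score of all members, 252 (246 to 258), and 91.2% of it lay in peaks. Across the 18 genes the score and cover had a Spearman correlation of 0.66, and length had one of -0.47 with score and -0.40 with cover. These are descriptions over neighbouring genes of 1 library.

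**Figure D2:**
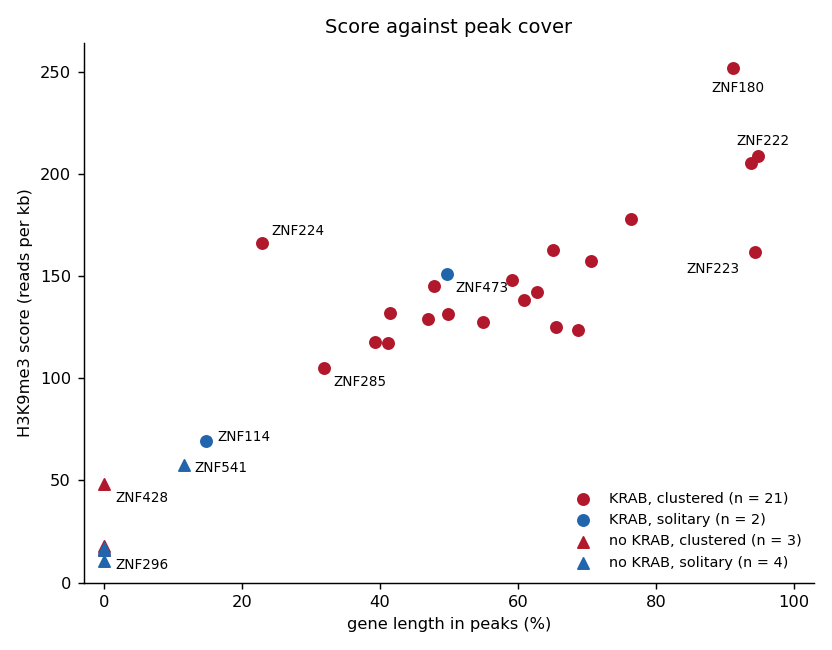
H3K9me3 score in reads per kb against percent of the gene in peaks for the 30 members, with circles for genes known to encode a KRAB domain, triangles for genes known to lack it, red for clustered and blue for solitary genes. ZNF224, with a score of 166 and 22.9% in peaks, has the lowest cover of its chain, and the genes without KRAB lie at 0 to 11.5% in peaks.

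The sequence between the genes of the longest chain was covered about as much as the genes. Of the 262 kb between intervals 59.7% lay in peaks, against 57.2% of the sequence within intervals. In the 500 kb to the left of the chain 6.84% lay in peaks, and in the 500 kb to the right 8.01%. The chain was broken by 109 stretches without a peak, with a median length of 1200 bp. The 10 longest made up 43.6% of the uncovered sequence and 18.2% of the chain, and 2 of them held the start of a member, ZNF225 and ZNF285.

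Cover ended more sharply on the left of the longest chain than on the right. To the left, 16.5% of the first 20 kb and 37.5% of the next 20 kb lay in peaks, and 0% in each of the 5 bins of 20 kb beyond them. The nearest gene on that side, AC011508.1, scored 107 (98.2 to 116) with 8.28% in peaks. LYPD5, which encodes a membrane-anchored Ly6 family protein and lies 6.64 kb from the chain, scored 102 (98.4 to 106) with 37.1%. KCNN4, a calcium-activated potassium channel gene 46.0 kb away, scored 20.7 (18.5 to 23.2) with no peak. To the right, 47.2%, 59.4%, 17.1%, 3% and 36.0% of successive 20 kb bins lay in peaks. CEACAM20, a cell adhesion molecule gene 1.16 kb from ZNF180, scored 122 (118 to 126) with 36.4% in peaks, and IGSF23, 112 kb away, scored 67.7 (64.4 to 71.2) with 14.3%. PVR, the poliovirus receptor gene 143 kb away, scored 36.2 (33.8 to 38.8) with no peak. The nearest gene on each side thus scored within the range of the chain, although the interval of AC011508.1 reaches below its lowest member, ZNF285. LYPD5 scored just below ZNF285 (105), with overlapping counting intervals. KCNN4, IGSF23 and PVR scored below ZNF285 with counting intervals that did not overlap its own.

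**Figure D3:**
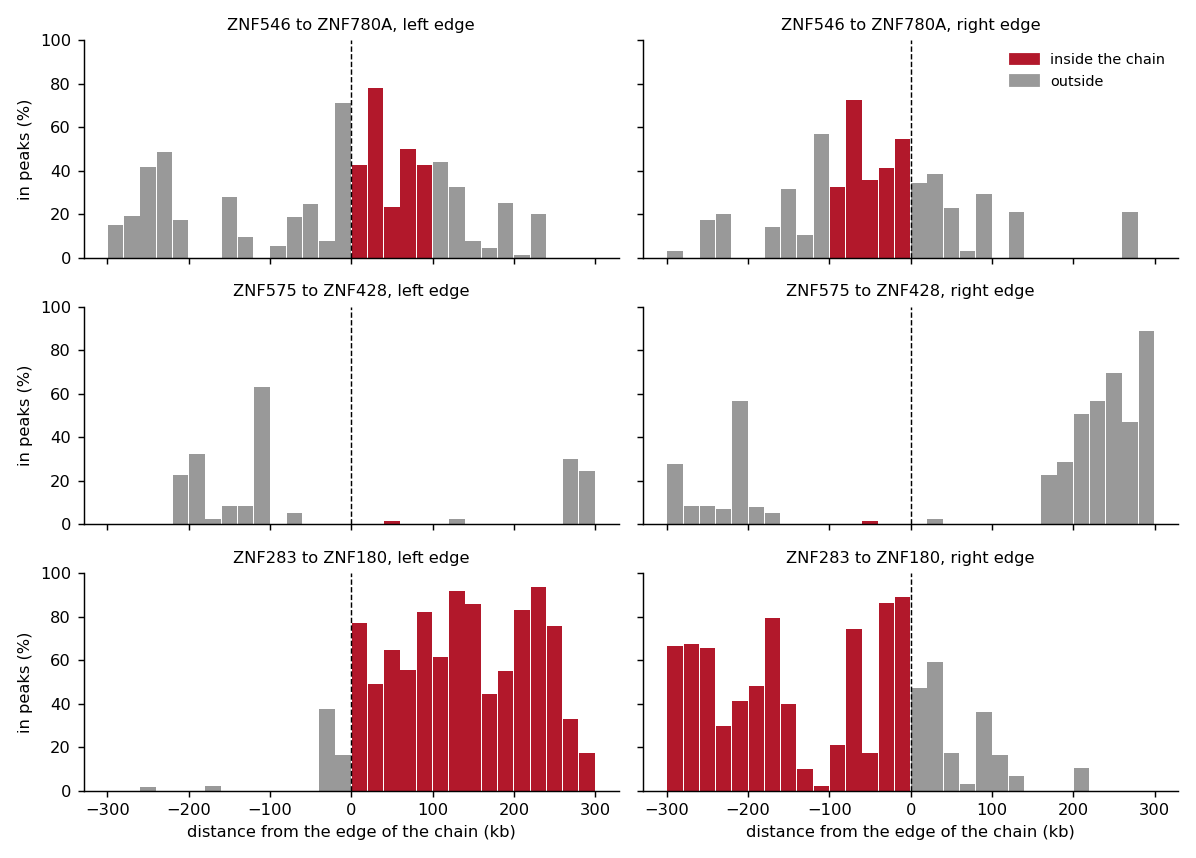
Percent of sequence in peaks in bins of 20 kb against the distance in kb from the left and right edges of the 3 chains of the window, with bins whose centre lies inside the chain in red and those outside in grey. The chain from ZNF283 to ZNF180 has 77.2% and 89.1% in its outermost bins, whereas the chain from ZNF575 to ZNF428 has at most 1.5% in any bin inside it.

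The chain of ZNF546, ZNF780B and ZNF780A, on 93.9 kb at 40502943 to 40596845, had scores within the range of the longest chain. ZNF546 scored 128 (124 to 131) with 54.9% in peaks, ZNF780B 145 (141 to 150) with 47.9% and ZNF780A 132 (128 to 137) with 41.4%. The first 2 overlap by 3.81 kb and share those reads. Of the 500 kb to its left 21.3% lay in peaks, more than the 6.84% on the left of the longest chain. Of the 500 kb to its right 7.5% did, close to the 8.01% there. PSMC4, a gene for an ATPase of the proteasome 15.6 kb to the left, scored 80.6 (75.2 to 86.2) with 37.5% in peaks. On the right the nearest gene, AC011496.1, scored 361 (236 to 529) and lay wholly in a peak, on only 26 reads.

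The chain of ZNF575, ZNF576 and ZNF428, at 44029649 to 44124014, carried no peak in any gene, although its last gene lies 207 kb from ZNF283. ZNF575 scored 18.1 (15.6 to 20.8), ZNF576 scored 15.9 (12.6 to 19.96) and ZNF428 scored 48.2 (44.4 to 52.2). ZNF428 was the 1 member with a score above the median of all symbols and no peak. In the whole chain 0.318% of the sequence lay in peaks, a single peak of 300 bp outside the intervals of its zinc finger genes. The neighbours PHLDB3 and CADM4, a cell adhesion molecule gene, scored 23.5 (21.8 to 25.3) and 46.9 (43.8 to 50.3) without a peak. These 3 genes met the rule for clustered genes at a gap of 100 kb but not at 50 kb, where the clustered class had 21 genes with a median of 142 and the solitary class 9 genes with a median of 18.1.

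Among the 6 solitary genes, 3 had no peak and low scores. ZNF296, known in mouse as a factor of embryonic stem cells, was the lowest member, at 10.4 (7.80 to 13.6), with the nearest peak 272045 bp from its start. Its neighbours CLASRP and GEMIN7, genes for RNA-processing proteins, scored 12.03 (10.86 to 13.297) and 16.6 (14.4 to 19.01). ZNF574 scored 16.2 (14.1 to 18.5), between GRIK5, a kainate receptor gene, at 21.0 (19.9 to 22.1) and POU2F2, a B cell transcription factor gene, at 38.8 (37.6 to 39.9). ZNF526 scored 16.9 (14.2 to 20.1), between DEDD2 at 18.0 (16.1 to 20.003) and the kinase gene GSK3A at 21.9 (19.3 to 24.6). Each of the 3 thus scored below both of its neighbours, although the counting intervals overlap those of 1 or both neighbours for ZNF296 and ZNF526.

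The other 3 solitary genes had peaks. ZNF473, whose product takes part in the processing of histone pre-mRNA, scored 151 (146 to 156) with 49.6% in peaks, including a peak of 10500 bp. This was the highest cover of a solitary member and lay within the range of the longest chain. Of the 10 kb on either side of ZNF473, 0% lay in peaks on the left and 35.5% on the right. Its left neighbour VRK3, a kinase gene, scored 30.3 (28.8 to 31.9) without a peak, and the right one, CTD-2126E3.1, scored 118 (112 to 123) with 29.96% in peaks. ZNF114 scored 69.2 (65.2 to 73.4) with 14.8% in peaks, between AC008392.1 at 5.55 (3.04 to 9.32) and CCDC114, a gene for a protein of motile cilia, at 23.6 (21.8 to 25.6). ZNF541, which encodes a chromatin protein of meiotic germ cells in mouse, scored 57.8 (55.3 to 60.4) with 11.5% in peaks. Its neighbours NAPA, a gene of vesicle fusion, and GLTSCR1 scored 22.3 (20.6 to 24.1) and 20.3 (19.4 to 21.2), both without a peak. Each of ZNF473, ZNF114 and ZNF541 scored higher than both of its neighbours, with counting intervals that did not overlap.

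Split by the KRAB domain, the members formed 2 classes whose scores did not overlap, whereas clustered and solitary members did overlap. The domain was assigned from background knowledge after the values were seen, because no protein sequences were used here, so the split is a description. The 23 genes known to encode a KRAB domain had scores of 69.2 to 252 (median 142), a mean cover of 58.4% and a peak in every gene. The 7 genes known to lack it (ZNF574, ZNF526, ZNF575, ZNF576, ZNF428, ZNF296 and ZNF541) had scores of 10.4 to 57.8 (median 16.9), a mean cover of 1.64% and a peak in 1 gene. Of all symbols, 29.1% scored at least as high as the lowest KRAB gene. Among clustered genes, the 21 with KRAB had a mean cover of 60.9% and the 3 without had 0%. Among solitary genes, the 2 with KRAB had 14.8% and 49.6%, and the 4 without had a mean of 2.88%. Clustering and the KRAB domain overlap in the members, and with 2 solitary KRAB genes and 3 clustered genes without KRAB their parts cannot be told apart.

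Cover was on average higher towards the ends of the genes and low at their starts. In the longest chain mean cover was 75.8% in the last 10% of gene length, against 46.9% in the first 10% (28.9 points). It was highest, 79.0%, in the eighth of 10 equal parts. The last 10% was covered more than the first in 11 of the 18 genes, equally in 3 and less in 4. The first 10% of ZNF235 lies within the last 10% of ZNF233, so these genes are not separate observations. In the chain of ZNF546, ZNF780B and ZNF780A the means were 66.7% in the last 10% and 22.4% in the first. ZNF546 and ZNF780B run towards each other and overlap, so their last 10% are mostly the same, wholly covered stretch. The last 10% of ZNF780A had no peak. Solitary members had means of 16.7% in the last 10% and 10.96% in the first. Both came from ZNF473 alone, with 100% and 65.7%, as the other solitary members had no peak in either part. The 343 other genes of the window of at least 3 kb had 8.33% and 7.39%. Of the 23 KRAB genes, 3 had the first 10% wholly in peaks. The last 10% was wholly in peaks in 13, including ZNF546 and ZNF780B with their shared stretch. Exceptions were ZNF155, with its first 10% wholly covered and no peak in its last 10%, ZNF283, with no peak in its last 10%, ZNF235 and ZNF229, with 48.9% and 79.8% in the last 10% and 75.5% and 90.6% in the first, and ZNF224, ZNF780A and ZNF114, with no peak in either.

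**Figure D4:**
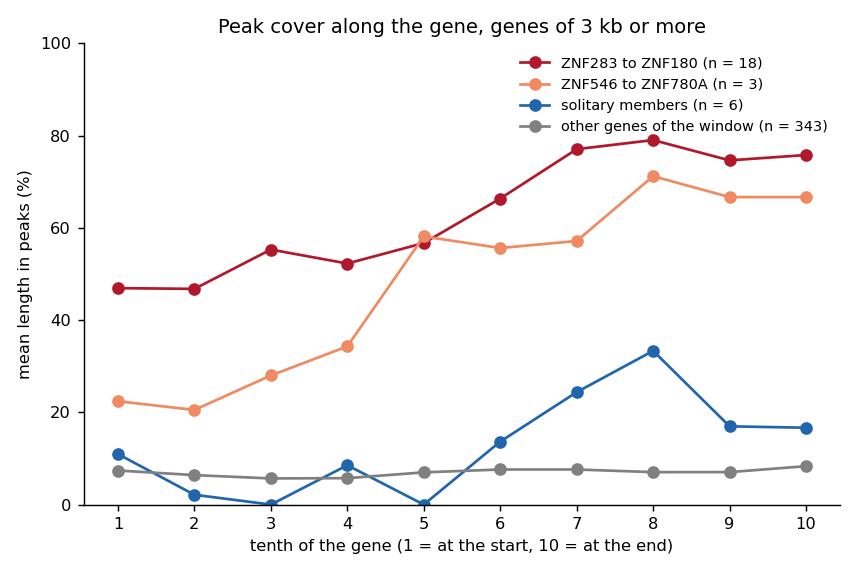
Mean percent of sequence in peaks in each of 10 equal parts of the gene, from start (1) to end (10), for members of 2 chains, solitary members and other genes of the window of at least 3 kb. The line of the chain from ZNF283 to ZNF180 runs from 46.9% to 75.8%, and that of other genes stays between 5.7% and 8.3%. In parts 1 and 10 the line of solitary members rests on ZNF473 alone. In part 10 the line of the chain from ZNF546 to ZNF780A counts a stretch shared by ZNF546 and ZNF780B for both genes.

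The start was taken as the outer end of the hg19 interval. It can differ from the RefSeq start used for promoters, and peaks at RefSeq starts were not counted. Judged by the shift of neighbouring genes between builds, it differs by kilobases for ZNF404, ZNF575, ZNF226, ZNF235 and ZNF541. The start so defined lay in a peak in 6 of the 23 KRAB genes (ZNF155, ZNF223, ZNF284, ZNF233, ZNF235 and ZNF229). The share was 8.59% of all symbols and 8.07% of the other genes of the window. In the 500 bp before the start mean cover was 26.1%, with no peak in 17 of the 23 genes. It was 27.4% in the 500 bp after the start. In the other bins within 10 kb it varied between 34.7% and 63.3%, and bins at 7.75 and 8.25 kb after the start, at 34.7% and 34.8%, were as low as that at 0.75 kb before it, at 34.9%. At the gene end cover was 67.5% in the last 500 bp of the gene and 68.7% in the 500 bp beyond. Of the 17 KRAB starts outside peaks, 8 lay within 1000 bp of one, the closest that of ZNF222 at 407 bp. ZNF180, the highest member, had its start 527 bp from the nearest peak. ZNF225 had its start 9103 bp from the nearest peak, inside the uncovered stretch that it shares with ZNF224. Within 10 kb of a start other genes of the chain begin or end, so these means mix neighbours.

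**Figure D5:**
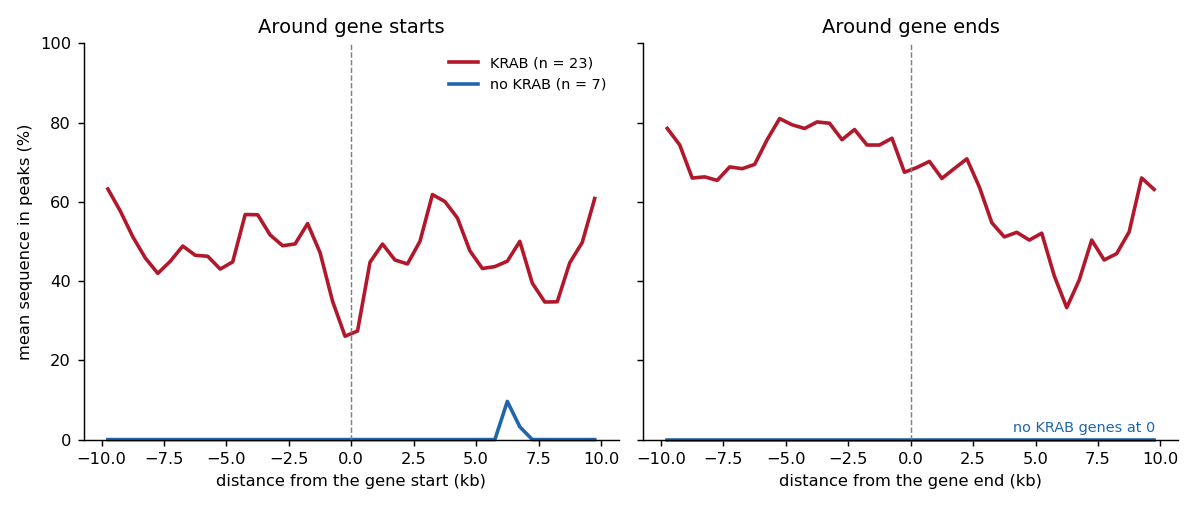
Mean percent of sequence in peaks in bins of 500 bp against the distance in kb from the gene start (left) and the gene end (right), for 23 KRAB genes (red) and 7 genes without KRAB (blue). Starts and ends are those of the hg19 intervals. The red line falls to 26.1% just before the start and stays at 67.5% to 68.7% around the end.

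Most members had promoters rich in CG dinucleotides, among KRAB genes and genes without KRAB alike. Peak cover of these promoters was not measured. At least 10 CG, which reads the same on both strands, occurred in 22 of the 24 promoters matched in RefSeq, against 56.0% of all genes with a promoter in the table. The median was 17.0 CG in the 17 KRAB genes and 25 in the 7 genes without KRAB, with 14.0 for all genes with a promoter. The printed promoters of ZNF180 and ZNF296, the highest and lowest members by score, held 31 and 29. ZNF404 was lowest with 2, and ZNF541 highest with 49. For both genes the RefSeq start lies kilobases from the start of the hg19 interval. The letters TATAAA, on either strand, occurred in 0 of the 24 and in 11.95% of all genes with a promoter.

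Other gene families of the window that lie in tandem had on average lower scores and less cover than clustered zinc finger genes. The 54 genes of the CEACAM, PSG, CYP2, KLK, LGALS and SIGLEC families, with FCGBP, had a median score of 63.2 and a mean cover of 16.7%, against 135 and 53.3% for clustered zinc finger genes. A peak was present in 28 of them (51.9%), against 36.8% of all symbols. The 15 kallikrein genes (KLK), which encode secreted proteases, had a median of 91.0 and a mean cover of 25.1%, led by KLK3, the gene for prostate-specific antigen, at 174 with 63.6% in peaks. The 12 CEACAM genes had a median of 72.3 and a mean cover of 11.4%. The 3 LGALS genes, which encode galectins, had a median of 95.6 and a mean cover of 63.6%, above that of clustered zinc finger genes. The 10 PSG genes, which encode pregnancy-specific glycoproteins, scored 29.3 to 40.8 without a peak. Both PSG genes and zinc finger paralogs are near-identical copies in places. Mappability was not used here, and its part in these values was not tested.

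Zinc finger genes elsewhere on chromosome 19 had on average more cover than those of the window. The 30 members had a mean cover of 45.2% and a median score of 130.3, and the other 215 zinc finger genes of the chromosome 62.8% and 139. The 39 genes between 52 and 55 Mb had 75.2% and 141, and the 34 between 34 and 40 Mb had 62.7% and 129. The 34 genes of the pericentromeric stretch that ends at 25 Mb were below the members, with 38.8% and 91.9. There the 13 solitary genes were above the 21 clustered ones, with 43.6% and 105 against 35.8% and 91.1. Between 34 and 40 Mb clustered genes had more cover, 64.1% against 48.9% for 3 solitary genes. Between 52 and 55 Mb they had 75.7%, against 59.1% for 1 solitary gene. Solitary genes of the window differed more from those elsewhere than clustered ones did. Mean cover was 12.7% for the 6 of the window and 45.0% for the 29 elsewhere on the chromosome. For clustered genes it was 53.3% and 65.6%. Of the 6 solitary genes of the window 4 are known to lack KRAB, and KRAB status was not assigned to the genes elsewhere. Among the 8 chains of at least 10 zinc finger genes on the chromosome, that from ZNF283 to ZNF180 was the fifth by median score and the seventh by share of its sequence in peaks, 58.2%. The other 7 chains had 52.2% to 73.1%. Between its zinc finger genes it had 59.7% in peaks, and the others 48.5% to 67.8%.

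The ends of the window were set by position. Just inside its lower end lie ZNF546 (128) and ZNF780B (145), and just outside it ZFP36 (19.9, no peak), which encodes an mRNA-destabilising protein with another type of zinc finger, and ZNF573 (113, 49.1% in peaks). Just inside the upper end lie ZNF473 (151) and ZNF114 (69.2), and just outside it ZNF175 (137, 59.1%) and ZNF577 (212, 99.1%), all scores in reads per kb.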

How the data were processed

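H3K9me3 reads per gene interval were deposited by the authors as counts, not normalised. The deposited gene score, a signal in reads per kb, equals the count divided by the interval length, with a largest difference of 3.03e-06, and is not scaled to depth, IgG or copy number. The 126965 deposited peaks are coordinates on hg19, on a grid of 150 bp, with no height or significance. The submitters' processing notes name Bowtie2, MACS and hg19 but no versions. How reads were filtered, and whether IgG entered the peak calls, is not stated in those notes or in the labels.

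Each of 35775 nuclear symbols was represented by its highest-scoring interval. Cover counted every base in a peak, and an overlap of at least 1 bp made a peak present. Cover functions were tested on simulated data. Promoters came from RefSeq (GRCh38.p14). KRAB status came from background knowledge, because the planned search in protein sequences could not be run. Genes were named by rule: the 5 highest and 5 lowest scores, solitary members, chain ends, neighbours and window edges, with the other members of each chain. The members and lists were chosen with earlier results of these data known. Alternatives were the longest interval per symbol, protein-coding genes, genes of at least 3 kb, wider peaks, and other gaps and chain sizes. With 1 library no p-value was computed. Computation used scipy 1.17.1, pandas 2.3.3 and numpy 2.4.6 in Python 3.11.15, with plots by matplotlib 3.10.9.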

Additional observations from a re-analysis of the deposited data

How the results depend on the processing

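Of 55 values recomputed under alternatives, 45 stayed within the interval of the value reported, 10 did not and 0 changed direction. For the number of members with a peak the limit was 1.5 times the value. Some of the 45 could not move. For values of members alone, the longest interval per symbol, protein-coding genes and genes of at least 3 kb left the same 30 members. Each member has 1 interval, all 30 are protein-coding, and the shortest is 4.77 kb. Intervals for mean cover treat members as independent and are wide. Most of the 10 came from leaving out the longest chain: the 12 members left had a median score of 53.0, a mean cover of 18.3% and 6 genes with a peak, the ratio of median scores to other genes of the window was 1.75 and the difference in cover 11.3 points, and the ratio of clustered to solitary medians was 2.35. The difference in mean cover between clustered and solitary members was then 11.4 points, against 40.7 with that chain, which lies within its wide interval but is a fall of over 1.5 times. That last ratio was 7.87 at a gap of 50 kb, 2.74 with chains of at least 5 genes and, added after the data were seen, 7.98 without ZNF473. Among protein-coding genes the ratio of members to other genes was 4.75. With peaks of at least 1500 bp the mean cover of members was 41.2% and the difference between KRAB genes and others 51.8 points. The difference between KRAB genes and others by protein pattern was not run. No paired analysis was possible because the study has 1 library per group. Low scores such as the 53 reads of ZNF296 are limited in precision by the read count, and the part of mappability was not tested.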

Other observations

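Genes whose products write or bind H3K9me3 or work with KRAB proteins mostly scored low. Of 15 genes for KRAB partners, H3K9 methyltransferases, HP1 proteins and the HUSH complex, 3 scored above the median of all symbols and 6 had a peak, a share (40%) near the 36.8% of all symbols. The median score was 22.1 reads per kb, against 43.5 over all symbols. Mean cover was 8.20%, and 2.13% without ZNF274, against 8.10% over all symbols. TRIM28, the KRAB partner on distal chromosome 19, scored 16.2 without a peak, and SETDB1 scored 22.9 with 4.29% in peaks. The 1 gene of the list with at least 50% in peaks was ZNF274, itself a KRAB zinc finger gene of chromosome 19, at 285 with 93.1%.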
